A study of Mus musculus with 4 samples.

Results

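Cytosolic ribosomal protein genes encode the proteins of the small (40S) and large (60S) subunits of the ribosome. They were taken as the rows of the deposited table whose symbol follows the ribosomal protein naming pattern (Rpl or Rps and a number, Rplp0, Rplp1, Rplp2 and Rpsa). The S6 kinase genes, names ending in a pseudogene suffix and names with a comma were left out. Of 104 matching names, 10 S6 kinase and 7 pseudogene names were removed, which left 87 members among 23936 gene rows. Of these, 77 are core ribosomal proteins (31 of the small and 46 of the large subunit), and 10 are paralogs, a retrogene or a protein that binds a ribosomal protein. The filter on low values (mean FPKM of 1 or more) kept 83 members and 8964 genes in all, called the tested genes below. The 4 members that did not were the paralogs Rpl10l, Rpl39l, Rpl3l and Rps4l, and Rps4l was listed at 0 in all 4 libraries.

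Each of the 4 groups was 1 library of RNA from G1ER, a mouse erythroblast line that has no GATA1 of its own and carries a fusion of GATA1 with an estrogen receptor domain, so that estradiol starts red cell maturation. Wild-type cells and a Chd7-/- line, lacking a chromatin remodeler, were sampled at 0 h and after 24 h of beta-estradiol, all in medium with erythropoietin and stem cell factor. Time was read from the sample titles, since the treatment label names estradiol for the 0 h libraries too, and whether the knockout line is 1 clone is not given in the sources used here. There were no replicates, so no difference has a replicate check, no test was possible and every ratio describes 1 library against another. In bulk RNA, fewer cells of a type and less RNA per cell cannot be told apart.

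The libraries were of similar approximate depth, 14.75 to 17.7 M (mega) fragments, read from the steps between low values. At that depth the median 95% counting interval of a member's log2 ratio was 0.025 to 0.028 wide on each side. The Chd7 row read 0 in every library, also in wild type, as did those of Hmgcs1 and Phgdh, genes that most growing cells use, so a listed 0 is no check of the genotype. All 8 erythroid markers were measured, among them Hbb-b1, which encodes adult beta globin, at 326, 7865, 528 and 13127 FPKM in wild type at 0 h, wild type at 24 h, knockout at 0 h and knockout at 24 h. Values in sets of 4 below keep this order. Of 12 markers of mast cells, macrophages, megakaryocytes, lymphocytes and stroma, 11 had a row, their summed level was 23.0, 6.31, 49.3 and 3.45 FPKM, and Mcpt8, Cd3e, Col1a1 and Col1a2 were among those at 0 throughout. The highest of them in any library was Cpa3, a mast cell protease, at 24.6 FPKM in the knockout at 0 h, and their part in the results was not tested.

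The ribosome joins 1 copy of nearly every one of these proteins with ribosomal RNA, and the genes are therefore usually expressed at similar, very high levels. Most of the mRNAs begin with a C followed by a run of pyrimidines, the TOP motif (terminal oligopyrimidine), through which growth signals control their translation. Maturing red cells depend on ribosomes for globin synthesis, and loss of 1 allele of any of several of these genes causes Diamond-Blackfan anemia in humans. Mouse ribosomal protein genes also have many processed copies, made when an mRNA was copied back into the genome, and reads from a copy and its parent can be hard to separate.

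The member with the largest ratios, Rps27, has such a copy. Rps27 encodes a zinc finger protein of the small subunit and lies at chr3:90212522-90213651 on the minus strand (GRCm38). The retrogene Rps27rt lies on another chromosome, at chr9:114982366-114982739 on the minus strand. Their coding sequences were identical over all 252 bases, and their annotated transcripts of 345 and 374 bases shared a run of 341 bases. The paralog Rps27l, at chr9:66946086-66949516 on the plus strand, differed from Rps27 at 60 of the 252 bases (76.2% identity), and their longest shared run was 11 bases. The coding sequences are shown because they decide which reads can be told apart. They are from GENCODE M21 (GRCm38), capitals mark the bases that differ between Rps27 and Rps27l, and the Rps27rt sequence is the same as that of Rps27.
Rps27: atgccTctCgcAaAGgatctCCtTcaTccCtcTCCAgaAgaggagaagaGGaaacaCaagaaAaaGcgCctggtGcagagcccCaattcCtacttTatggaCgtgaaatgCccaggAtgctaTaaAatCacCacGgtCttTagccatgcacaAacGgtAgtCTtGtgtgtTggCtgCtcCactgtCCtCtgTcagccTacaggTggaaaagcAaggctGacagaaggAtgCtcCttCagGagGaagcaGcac
Rps27l: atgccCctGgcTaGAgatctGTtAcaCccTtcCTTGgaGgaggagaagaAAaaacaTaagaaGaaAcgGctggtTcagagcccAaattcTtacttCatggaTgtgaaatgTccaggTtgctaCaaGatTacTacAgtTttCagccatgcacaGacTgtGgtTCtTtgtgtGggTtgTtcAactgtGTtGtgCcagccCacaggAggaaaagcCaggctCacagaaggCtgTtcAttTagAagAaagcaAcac
The differences between Rps27 and Rps27l run along the whole coding sequence, whereas no coding base separates Rps27 from Rps27rt.

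The pyrimidine run was searched at the annotated starts of the members. RefSeq (GRCm38.p6) gave windows of 250 bases before to 50 bases after a start for 66 members. A C at the annotated start followed by at least 4 pyrimidines, read on the gene strand, was found in 14 of these 66 (21.2%), against 2.90% of 6796 tested genes with a window and 2.51% of all windows. Only a run at the exact annotated base was counted, so a member without a match may still have the motif. Rps12, for example, had no run at its annotated start but had pyrimidines in a row further along its window. Rps27, Rps27rt and Rpl28 are shown, the first pair because they share a sequence and the last because it was among the members with the largest 24 h to 0 h ratios in both genotypes. Each window runs from 10 bases before the start to 20 bases from it, and capitals mark the pyrimidine run.
Rps27 (chr3:90213629-90213658, minus): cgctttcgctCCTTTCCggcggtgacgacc
Rps27rt (chr9:114982720-114982749, minus): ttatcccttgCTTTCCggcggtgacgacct
Rpl28 (chr7:4792955-4792984, plus): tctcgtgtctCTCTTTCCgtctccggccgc
The other members with a run at the annotated start were Rpl14, Rpl15, Rpl35, Rpl35a, Rpl38, Rplp2, Rps10, Rps15a, Rps18, Rps21 and Rps6. Of 4 other strings searched on both strands, CCGGAA (the core of ETS factor sites) was in the windows of 54.5% of the 66 members and 37.5% of tested genes, and in 47.4% of member windows and 14.9% of all windows. The YY1 string AAGATGGC was in 9.09% of members and 6.65% of tested genes, and in 10.3% of member windows and 2.75% of all windows. The string of the TATA box, TATAAA, was in 10.6% of members and 7.56% of tested genes, but in 8.97% of member windows and 13.6% of all windows. AGATAA, the string that GATA factors bind, was in 7.58% of members and 7.45% of tested genes, and in 6.41% of member windows and 11.2% of all windows. None of these 4 strings contains another. A match is a description of the letters and says nothing of binding.

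Ribosomal protein mRNAs were among the most abundant mRNAs of these cells. The median core member stood at 2057, 2024, 1803 and 1760 FPKM, whereas the median tested gene stood at 12.4, 11.5, 12 and 11 FPKM. Of the 134 tested genes whose mean reached 1000 FPKM, 66 were members, and 64 of the 77 core members reached that mean while 6 stayed under 500 FPKM. Summed over the 87 members, the levels were 164089, 166571, 148316 and 143626 FPKM. This was 31.5%, 30.7%, 30.3% and 28.8% of the summed FPKM of all rows other than small RNA and predicted loci. Small RNA and predicted loci themselves made up 43.6%, 30.4%, 69.5% and 33.8% of the summed FPKM of all rows, which put the members' share of all rows at 17.8%, 21.3%, 9.24% and 19.1%. The knockout library at 0 h thus stands apart in its small RNA and predicted loci. Results below that were rescaled to an equal sum over all rows include these loci, and no such rescaling without them is given.

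Rplp1, an acidic protein of the ribosomal stalk, which binds translation factors, was the most abundant core member at 7414, 7083, 6614 and 5726 FPKM. Its partners were lower, Rplp2 at 2808, 2708, 2472 and 2303 FPKM and Rplp0, which anchors them to the large subunit, at 2560.2, 2541, 2993 and 2720.0 FPKM. Rplp1 and Rplp2 were both lowest in the knockout at 24 h, whereas Rplp0 was highest in the knockout. The next in mean level were Rps12 (5062, 4904, 4008 and 3704 FPKM), a small subunit protein, and Rps18 (4479, 4439, 4056 and 3799 FPKM), which sits in the head of that subunit. Rpl41, which encodes the shortest ribosomal protein, was at 3898, 4681, 3925 and 4022 FPKM, and Rpl12, of the stalk base, at 3957, 3790.1, 3301 and 3079 FPKM. Of these, Rps12, Rps18 and Rpl12 were lower in both knockout libraries than in either wild-type library, as were 78.3% of the 83 members and 20.4% of all genes.

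At the other end of the core members were rows that share sequence with a copy listed far higher. Rpl30 was at 100.3, 70.6, 84.8 and 75.1 FPKM, while its copy Gm12191 was at 923, 975, 869 and 838 FPKM. Rpl26, whose protein binds the mRNA of p53 in human cells, was at 245, 203, 219.9 and 160.2 FPKM, while its copy Gm15772 was at 3118, 3250.2, 2630 and 2761 FPKM. Rpl34 was at 454, 484, 409.6 and 392 FPKM and Rpl34-ps1 at 2014, 1876, 1602 and 1621 FPKM. In all 3 pairs and in all 4 libraries the annotated copy had the higher level. Copies were counted as other annotated genes whose transcript matched at least 90% of a member's coding length at 95% identity or more. By that rule 79 members had copies, and 15 members had a copy with a row of its own in the table. Added over the members the copies came to 566, where a copy shared by members counts for each. The remaining low core members were Rps27, Rps15a and Rpl22, described below.

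**Figure D1:**
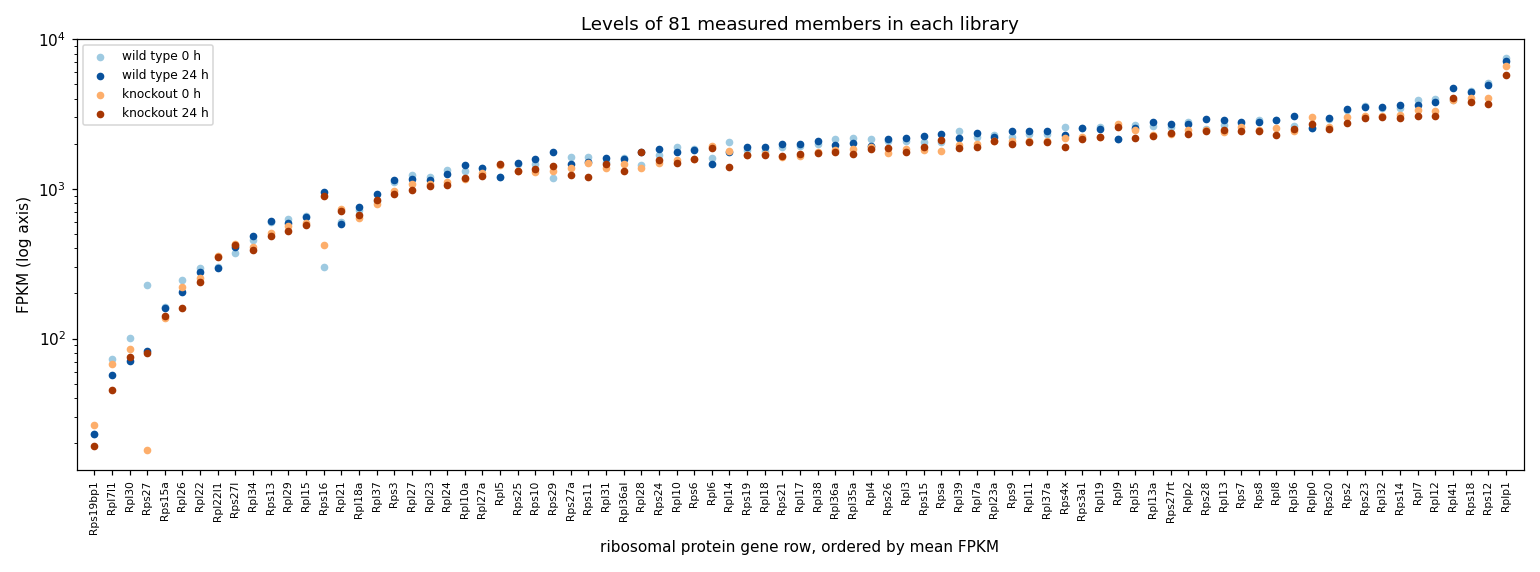
Level of 81 of the 83 measured members in each library, in FPKM on a log axis, ordered along the horizontal axis by mean. Most members lie above 1000 FPKM with the 4 libraries close together, and Rps27 and Rps16 are the rows whose libraries spread farthest.

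Rps27 was listed at 228 FPKM in wild type at 0 h, 82.1 in wild type at 24 h, 18 in the knockout at 0 h and 80.3 in the knockout at 24 h. At the full transcript length and the approximate depths these convert to about 1179, 502, 91.5 and 440 fragments, which are not observed counts. The log2 ratio of FPKM + 1, the measure used for all ratios here, was -1.46 for wild type at 24 h over 0 h and 2.10 for the knockout, opposite in direction. The knockout to wild-type ratio was -3.59 at 0 h and -0.03 at 24 h. Counting error of the knockout response, from these converted values, was 0.32 on each side, the widest among the members. It leaves out any error in dividing fragments between Rps27 and Rps27rt. Rps27rt, with the same coding sequence, was at 2575, 2687, 2327 and 2374 FPKM, with log2 ratios from -0.18 to 0.06 in these 4 comparisons. Rps27 thus carried 8.13%, 2.97%, 0.767% and 3.27% of the sum of both rows.

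Summed, Rps27 and Rps27rt stood at 2802, 2769, 2345 and 2454 FPKM. The log2 ratios of the sum were -0.02 and 0.07 for the estradiol responses and -0.26 and -0.17 for knockout over wild type at 0 h and 24 h. The sum was lower in both knockout libraries than in either wild-type library, as were most members, and its 2 responses differed by 0.08 instead of the 3.56 of Rps27 alone. How the authors' pipeline divided fragments between the rows is not given in the sources used here, and its part in the Rps27 values was not tested. Rps27l, which can be told apart by sequence and is a p53 target in human cells, was at 371, 409.9, 429.6 and 424 FPKM. It was lowest in wild type at 0 h, with knockout to wild-type ratios of 0.21 and 0.05.

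Summing also changed the ratios of the 3 other members with a high copy. In Rpl30, which held under 10% of its sum with Gm12191, the wild-type response was -0.50 for the member and 0.03 for the sum. Its knockout to wild-type ratio at 24 h was 0.09 for the member and -0.20 for the sum, and its difference of responses, knockout minus wild type, 0.33 and -0.09. In Rpl34 that difference was -0.16 for the member and 0.07 for its sum with Rpl34-ps1. These directions thus turned with the sum. In Rpl26 the knockout response was -0.45 for the member, which held 5.48% to 7.72% of the sum with Gm15772, and 0.04 for the sum. In the same gene the knockout to wild-type ratio was -0.15 at 0 h and -0.34 at 24 h for the member and -0.24 at both times for the sum. Gm15772 lies on chromosome 5 (chr5:3236431-3236868, plus) and matches Rpl26, which does not lie there, at 99.5% identity. Its own ratios were -0.25 and -0.24, below those of the members on chromosome 5 described further on.

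**Figure D2:**
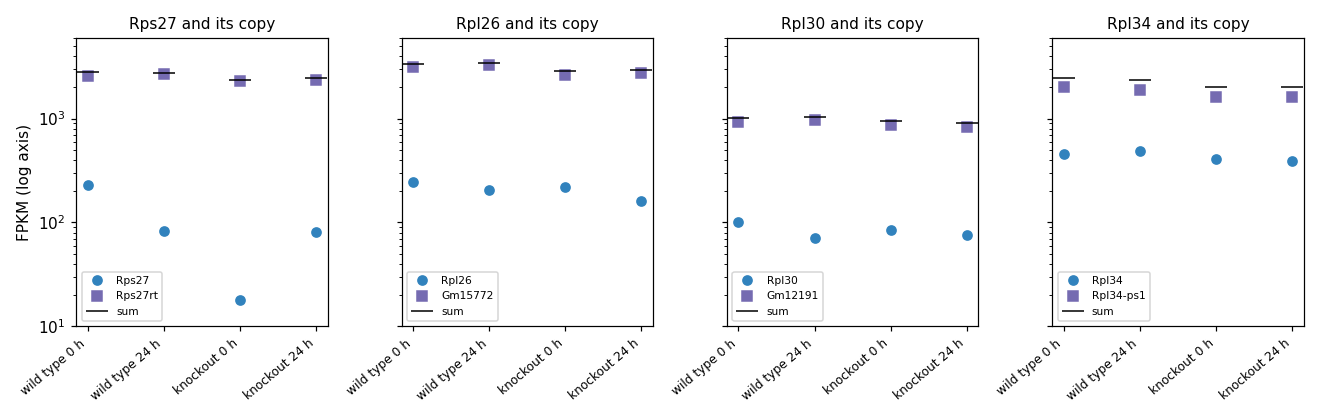
Levels in FPKM, on a log axis, of Rps27, Rpl26, Rpl30 and Rpl34 (circles), of 1 annotated copy of each (squares) and of their sum (black bars) in the 4 libraries. In each panel the copy lies above the member, and the Rps27 row moves between 18 and 228 FPKM while its sum with Rps27rt stays between 2345 and 2802 FPKM.

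Rps16, a small subunit protein gene at chr7:28350652-28353155 on the plus strand, was the other member past 2-fold. It was listed at 300.1, 951, 422 and 889 FPKM, higher at 24 h than at 0 h in both genotypes. Its log2 ratio of 24 h over 0 h was 1.66 for wild type and 1.07 for the knockout line. The knockout to wild-type ratio was 0.49 at 0 h and -0.10 at 24 h. Rps16 had 3 annotated copies, one of them, Rps16-ps2, identical over the coding sequence, and none of the 3 was found by name among the rows used, so no sum could be formed.

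Estradiol left the members' mRNAs near their starting level in wild type, in cells whose median gene was lower at 24 h. The median log2 ratio of the 83 members was 0.01, against -0.11 over all 8964 genes tested and 0.00 over the 637 genes that were not members but whose mean reached 100 FPKM. Of the members, 1 (Rps16) was at least 2-fold higher and 1 (Rps27) at least 2-fold lower, beside 1.86% and 1.06% of all genes tested. A smaller threshold of 0.32 on the log2 scale, taken from the all-gene median, was passed upward by 6 members and downward by 2, beside 16.4% and 14.2% of genes. Above that median lay 69 of 83 members, where 50% of genes lie by definition. By sign, 43 were higher and 40 lower, beside 35.9% and 64% of genes. These became 79 and 4 when each library was rescaled to an equal sum (TPM scaling) and 64 and 19 with equal upper quartiles.

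After Rps16 the highest ratios in wild type were those of Rps29 and Rpl28. Rps29, a small zinc-binding protein of the 40S subunit, was at 1187, 1760.2, 1307 and 1419 FPKM, a log2 ratio of 0.57 in wild type and 0.12 in the knockout. Rpl28, of the large subunit, was at 1441, 1773, 1366 and 1754 FPKM, with ratios of 0.30 and 0.36, so both 24 h libraries were above both 0 h libraries. The lowest after Rps27 were Rpl30 (-0.50, but 0.03 summed with its copy) and Rpl7l1 (-0.35), a paralog of Rpl7 that was at 73.1, 57.3, 67.5 and 45.1 FPKM.

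In the knockout the members' median ratio of 24 h over 0 h was -0.05, against -0.12 over all genes and -0.11 over the same 637 abundant genes. Rps27 and Rps16 were the 2 members at least 2-fold higher and 0 were at least 2-fold lower, beside 3.38% and 3.64% of genes. The smaller threshold of 0.32 from the all-gene median was passed upward by 4 members and downward by 2, beside 22.1% and 21.7% of genes, and 66 of 83 lay above that median itself (50% of genes). Rpl28 (0.36) followed Rps27 and Rps16. The lowest were Rpl7l1 (-0.57), Rpl26 (-0.45, but 0.04 summed with its copy) and Rps19bp1 (-0.44), a nucleolar protein that binds Rps19 and was at 22.9, 23.0, 26.3 and 19.2 FPKM. By sign, 24 members were higher and 59 lower, beside 37.4% and 62.5% of genes. The sign changed with the scaling, with 65 higher and 18 lower with equal upper quartiles. Under TPM scaling 83 were higher and 0 lower, but the all-gene median itself moved to 0.83. That scaling divides by the sum over all rows, of which small RNA and predicted loci made up 69.5% in the knockout at 0 h.

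The members varied less among themselves than other abundant genes did. Their interquartile range of log2 ratios was 0.14 in the wild-type response and 0.12 in the knockout response. The 637 non-members whose mean reached 100 FPKM had 0.39 and 0.54. For knockout over wild type the ranges were 0.10 at 0 h and 0.11 at 24 h, beside 0.19 and 0.30. The 637 rows include small RNA and predicted loci and were not matched to the members in level. No range without these loci is given.

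**Figure D3:**
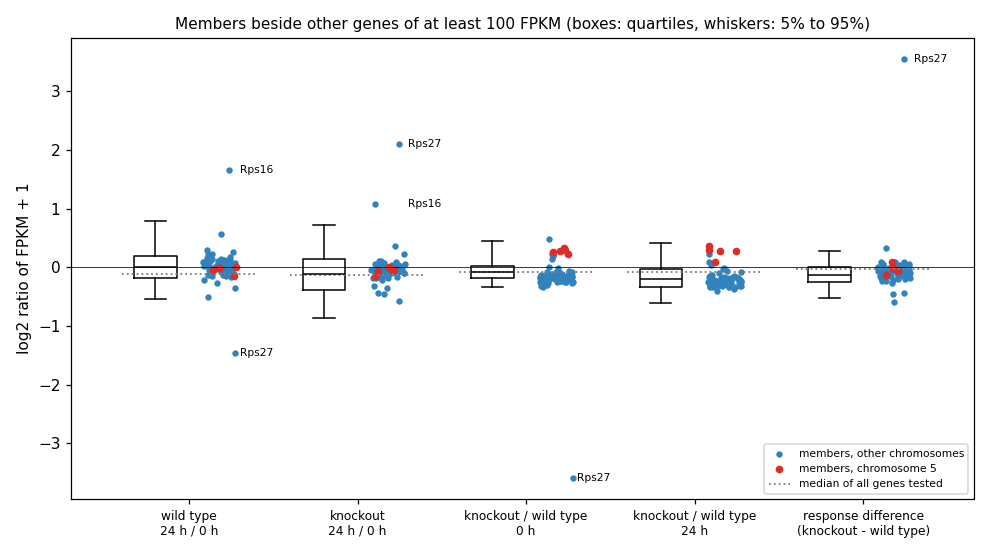
Log2 ratio of FPKM + 1 for each of the 83 members (points, those on chromosome 5 in red) in the 4 comparisons of 2 libraries and in the difference of the responses. The boxes give the quartiles of the 637 non-members whose mean reached 100 FPKM, their whiskers the range from 5% to 95%, and the dotted lines the median of all genes tested. The members form a narrow band in each comparison, with Rps27 and Rps16 far outside it and the chromosome 5 members above it in the comparisons of knockout with wild type only.

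The responses differed little between genotypes apart from Rps27. The difference of log2 ratios, knockout minus wild type, had a median of -0.05 over the members and -0.02 over all genes. Rps27 (3.56) was the 1 member at least 2-fold higher in this difference and 0 were lower, beside 0.602% and 0.625% of genes. The threshold of 0.32 from the all-gene median was passed upward by 2 members and downward by 3, beside 12.8% and 10.5% of genes. Next after Rps27 came Rpl30 (0.33, but -0.09 summed with its copy) and Rpl39 (0.10), and the lowest were Rps16 (-0.59), Rps29 (-0.45) and Rps19bp1 (-0.44). By sign, 21 were higher and 62 lower, beside 46.3% and 53.7% of genes. These became 83 and 0 under TPM scaling, where the all-gene median was 0.72, and 34 and 49 with equal upper quartiles. The TPM values again rest on the sum over all rows of the knockout library at 0 h. Both knockout comparisons and both responses share libraries with this difference, so they are given side by side and not as separate evidence.

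The knockout line had slightly lower levels of most ribosomal protein mRNAs, before and after estradiol. The median log2 ratio of knockout over wild type was -0.17 at 0 h and -0.23 at 24 h, against -0.07 and -0.09 over all genes. At 0 h, 72 of 83 members were lower and 11 higher, beside 65.3% and 34.6% of all genes. At 24 h, 75 were lower and 8 higher, beside 61.8% and 38.1%. At both times, 71 members (85.5% of 83) were lower, beside 48% of genes. Both knockout libraries lay below both wild-type libraries in 65 members (78.3% of 83), beside 20.4% of genes. Among the core members not on chromosome 5, 68 of 72 were lower at both times. Other abundant genes were lower too, most so at 24 h, since the 637 non-members whose mean reached 100 FPKM had median ratios of -0.08 and -0.20 and 30.1% of them lay below in both knockout libraries. With TPM scaling, 83 were lower and 0 higher at 0 h, where the all-gene median was -0.78. At 24 h the split was then 73 and 10. The sum over all rows, on which TPM scaling rests, was 923195 FPKM in wild type and 1604980 FPKM in the knockout at 0 h. Without small RNA and predicted loci the sums were 520758 and 489449 FPKM, so the excess of the knockout library lay in those loci. The highest log2 ratio of any tested gene at 0 h was 19.1, and the lowest in the knockout response was -19.1. With FPKM + 1, ratios of that size need a very high value in the knockout library at 0 h. The part of single rows in that sum was not tested.

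Few members passed a fold threshold. At 0 h, 0 members were at least 2-fold higher and 1, Rps27, at least 2-fold lower, beside 0.435% and 0.647% of genes, and at 24 h there were 0 in each direction, beside 0.714% and 1.14%. At 0 h, 5 members lay at least 0.32 above and 1 at least 0.32 below the all-gene median, beside 9.5% and 5.87% of genes. At 24 h the counts were 4 and 0, beside 15.2% and 12.1%. After Rps27, the lowest members at 0 h were Rps12 (-0.34) and Rpl39 (-0.32), which lines the exit tunnel of the large subunit and was at 2432, 2192, 1950.2 and 1882 FPKM. Rps12 (-0.40) and Rpl26 (-0.34) were among the lowest at 24 h. Rps12 and Rpl39 were each lower in both knockout libraries than in either wild-type library.

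Both subunits were lower by similar amounts. The 31 small subunit core members had median ratios of -0.19 and -0.25, and the 46 large subunit core members -0.17 and -0.22. Core proteins whose symbols the naming pattern does not cover include Fau (1881, 2369, 1665 and 2039 FPKM), made as a fusion with a ubiquitin-like protein, and Gnb2l1 (2565, 2539, 2144 and 2055 FPKM), the scaffold protein RACK1. Both were lower in the knockout at both times, with ratios between -0.31 and -0.18. Rpsa, a small subunit protein also known as a laminin receptor, was at 2057, 2336, 1797 and 2107 FPKM, lower in the knockout at both times and higher at 24 h in both genotypes.

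The members that were higher in the knockout at both times were 7 (8.43% of 83), beside 20.8% of genes, and 5 of these 7 lie on chromosome 5. In the same 7 both knockout libraries lay above both wild-type libraries, beside 9.46% of genes. These 5 are all the measured members on that chromosome, and each encodes a large subunit protein. Rpl9 (chr5:65388364-65391444, minus) was at 2144, 2133, 2711 and 2602 FPKM. Rpl5 (chr5:107900502-107909005, plus), which with Rpl11 and 5S ribosomal RNA binds Mdm2, the inhibitor of p53, was at 1195, 1202, 1446 and 1453 FPKM. Rplp0 (chr5:115559467-115563727, plus) had the levels given above. In Rpl9 and Rpl5 the knockout libraries differed from each other by far less than from wild type, and in Rplp0 the knockout library at 24 h lay closer to wild type. Rpl6 (chr5:121204481-121209241, plus) was at 1602, 1456, 1928 and 1873 FPKM and Rpl21 (chr5:146832890-146837032, plus) at 595, 579.9, 735 and 713 FPKM. In both, each knockout library was above each wild-type library.

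The median knockout to wild-type log2 ratio of the 5 was 0.28 at 0 h and 0.29 at 24 h, against -0.17 and -0.23 for the other 78 members. The medians thus lay 0.44 and 0.52 apart, a 1.36-fold and a 1.43-fold difference. On the 18 other chromosomes with members, the members' medians ran from -0.27 to -0.08 at 0 h and from -0.29 to -0.14 at 24 h. The 2 sets of members overlapped, since Rps16 (0.49) and Rpl22l1 (0.23) were at or above Rplp0 (0.23) at 0 h, and Rpl22l1 (0.23) was above Rplp0 (0.10) at 24 h. In the responses to estradiol the chromosome 5 members had medians of -0.01 and -0.04, beside 0.01 and -0.05 for the other members.

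The same shift was present over all genes of chromosome 5. Its 565 tested genes had median ratios of 0.40 and 0.34, and 541 and 530 of them lay above the all-gene median. The 7998 tested genes placed on other chromosomes had medians of -0.08 and -0.11. Among the 38 non-members on chromosome 5 whose mean reached 100 FPKM, the medians were 0.43 and 0.27. What sets chromosome 5 apart between the lines was not tested. The absolute direction at 0 h changed under TPM scaling, which includes the small RNA and predicted loci of the knockout library at 0 h. There 0 of the 5 members were higher in the knockout (median -0.52, beside -0.97 for the others). However, all 5 lay above the median of the other members with each of the 3 scalings at both times.

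**Figure D4:**
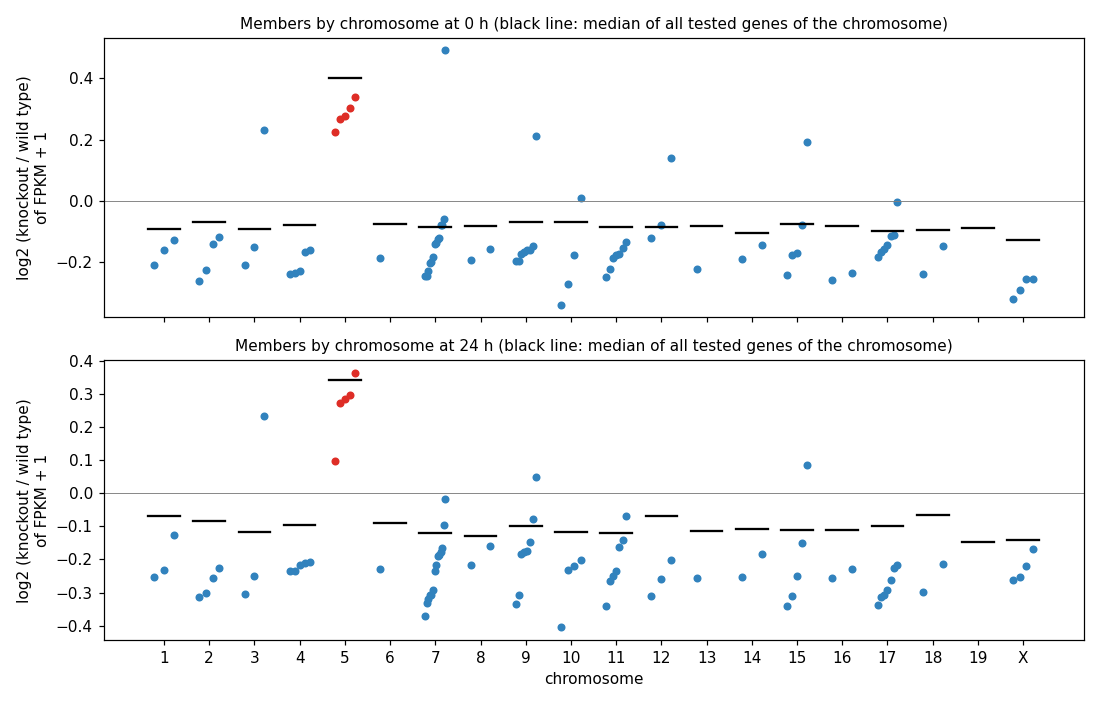
Log2 ratio of knockout over wild type (FPKM + 1) of each member by chromosome at 0 h (upper panel) and 24 h (lower panel), with chromosome 5 in red and a black line at the median of all tested genes of each chromosome. Rps27 is left out of the points. The 5 members on chromosome 5 lie between 0.10 and 0.36 in both panels, below the line of their chromosome except for 1 at 24 h, while most other members lie below 0 and below the lines of theirs.

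The 2 members higher in the knockout at both times that lie elsewhere were Rps27l and Rpl22l1, both paralogs. Rpl22l1 was at 302, 297, 355 and 349.8 FPKM, a ratio of 0.23 at both times. Its paralog Rpl22, which represses Rpl22l1 in mouse cells, was at 295, 277, 252 and 239.8 FPKM, ratios of -0.23 and -0.21. Within each genotype these genes differed little between 0 h and 24 h, and neither overlapped between the genotypes. Under TPM scaling the 0 h ratios of both Rpl22l1 (-0.56) and Rps27l (-0.58) were below 0, although they stayed above the all-gene median of -0.78. Rpl36al, a paralog of Rpl36a, was at 1599, 1579.6, 1469 and 1319 FPKM and went with the majority. Rpl30, Rpl41, Rps16, Rps19bp1 and Rps29 were higher in the knockout at one time and lower at the other.

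The mouse versions of 19 human Diamond-Blackfan anemia genes followed the other members. Their medians relative to all genes were 0.14 and 0.12 in the wild-type and knockout responses and -0.07 and -0.13 for knockout over wild type at 0 h and 24 h. At 0 h 17 of 19 were lower in the knockout, the exceptions being Rpl5 and Rps29, and at 24 h 18 of 19, the exception being Rpl5, beside 65.3% and 61.8% of all genes. Rps19, the gene most often affected in patients, was at 1813, 1896, 1667 and 1691 FPKM. Its knockout libraries were both below both wild-type libraries, as in most members.

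Among the other small subunit genes of that list, Rps7 was at 2731, 2785, 2588 and 2423 FPKM. Rps10 was at 1454, 1569.6, 1296 and 1349 FPKM and Rps24 at 1689.6, 1842, 1482 and 1545 FPKM. These 3 genes were lower in both knockout libraries than in either wild-type library, as were 78.3% of the 83 members and 20.4% of all genes. Rps26, whose protein lies at the mRNA exit channel, was at 2087, 2149, 1732 and 1868 FPKM. Rps15a was far lower, at 162, 160.3, 138 and 142 FPKM. It has copies with rows of their own, of which Rps15a-ps6 was at 21.4, 21.4, 16.6 and 17.2 FPKM. Rps15a itself held 87.9% to 89.0% of the sum with these copies, so the sum was low too. The transcript used here for Rps15a has 5179 bases, 390 of them coding. FPKM is divided by transcript length, and the part of that length in the Rps15a level was not tested. Rps26 and Rps15a did not overlap between the genotypes either. Rps28 was at 2489, 2905, 2484 and 2424 FPKM and stood out by its wild-type 24 h library.

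Among the large subunit genes of the list, Rpl11 was at 2313, 2433, 2069 and 2067 FPKM. In contrast to its partner Rpl5 on chromosome 5, Rpl11 was lower in both knockout libraries. Rpl15 was at 655, 650.2, 594 and 572 FPKM, Rpl18 at 1776, 1912, 1707 and 1676 FPKM, and Rpl27 at 1229, 1161, 1080.0 and 985 FPKM. Rpl31 was at 1512, 1601, 1385 and 1467 FPKM, Rpl35 at 2677, 2542, 2468 and 2175 FPKM, and Rpl35a at 2178, 2024, 1853 and 1694 FPKM. In all 6 of these both knockout libraries lay below both wild-type libraries, as in 78.3% of the 83 members and 20.4% of all genes. Rpl26 did overlap, since its knockout library at 0 h (219.9 FPKM) was above its wild-type library at 24 h (203 FPKM). Trp53, which encodes p53 and is stabilised when free Rpl5 and Rpl11 hold Mdm2, was at 16.7, 23.2, 13.3 and 19.6 FPKM, and Mdm2 at 15.2, 14.6, 15.9 and 17.1 FPKM.

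Many ribosomal protein genes carry small nucleolar RNAs, guides of ribosomal RNA modification, in their introns, and 30 members held 58 annotated ones. Members with and without them had nearly the same medians, -0.18 and -0.16 for knockout over wild type at 0 h and -0.22 and -0.23 at 24 h. The 32 such RNAs with a row in the table had summed levels of 10042, 20587, 18236 and 12331 FPKM, and 16 to 22 of them were listed at 0 in a library. Their values moved in large steps. Snord83b was at 0 in wild type at 0 h and at 9765 FPKM in the knockout at 0 h. In the latter library Snora70 and Snora7a had the same value, 398.7 FPKM. No difference from the host genes is therefore read from these rows.

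Other genes of protein synthesis are set beside the members by their medians relative to all genes. For 21 other mRNAs known to carry a TOP motif these were -0.04 and -0.05 in the wild-type and knockout responses and -0.09 and -0.17 for knockout over wild type at 0 h and 24 h. Eef1a1, the main elongation factor, was at 9484, 9151, 8194 and 7714 FPKM. All 21 were lower in the knockout at 0 h and 18 at 24 h, beside 65.3% and 61.8% of all genes. For 77 mitochondrial ribosomal proteins the medians were 0.04 and -0.11 in the responses and 0.01 and -0.16 between genotypes.

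The factors that make ribosomal RNA and assemble ribosomes moved apart from the ribosomal proteins. For 32 nucleolar and RNA polymerase I genes the relative medians were -0.29 in the wild-type and -0.52 in the knockout response, where the members had 0.12 and 0.07. In wild type 31 of the 32 and in the knockout 30 were lower at 24 h, beside 64% and 62.5% of genes. At least 2-fold lower were 0 of them in wild type and 5 in the knockout, beside the 1.06% and 3.64% of genes given above. Ncl, which encodes nucleolin, was at 214, 129, 185 and 108 FPKM. Polr1b, a core subunit of RNA polymerase I, was at 31.5, 16.4, 32.4 and 13.6 FPKM. In both genes each 24 h library was below each 0 h library.

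Across the 81 members other than Rps27 and Rps16, the ratio of knockout over wild type at 0 h and that at 24 h had a Pearson correlation of 0.72 and a Spearman rho of 0.28. Over the 76 of these not on chromosome 5, the values were 0.38 and 0.13. The responses of wild type and knockout had 0.66 by both measures over the 81 members. These correlations are across genes, which are not independent replicates. The points share 4 libraries, their depths and their scaling.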

How the data were processed

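RNA of 4 libraries (1 per group) was analysed from the authors' deposited FPKM, 1 value per gene symbol and library. Per the submitters' processing notes, FastQC, cutadapt, TopHat2 2.0.11 and Cufflinks 2.2.1 were used with GRCm38 (mm10), and per the labels' protocols the RNA was depleted of ribosomal RNA. How the values were scaled between libraries, which annotation was used and how fragments with several matches were shared out is not given in the sources used here.

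From these values, log2 ratios of FPKM + 1 were computed for genes whose mean reached 1 FPKM (pandas 2.3.3, numpy 2.4.6). A pseudocount of 1 understates the change of low genes. With 1 library per group no test was run, and the 2-fold threshold and the smaller one of 0.32 (log2) from the all-gene median describe sizes only. The calculation was tested on simulated data. Depth was approximated from the FPKM steps of genes with a transcript of at least 3 kb. Of the low values used, 46.8% to 51.2% were whole fragments within 0.05 of a fragment, against a median of 4.72% to 6.38% over other depths tried, so no count test was run. Counting intervals cover counting error only. Coordinates and copies are from GENCODE M21, searched with BLAST+ 2.17.0, and 8563 of 8964 tested genes had a symbol there. Alternatives were another pseudocount, filter, scaling, background or member list. Leaving out chromosome 5, leaving out Rps27 with Rps16, and summing members with their copies were chosen after seeing the data.

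Named were Rps27, its retrogene and paralogs, Rpl22, Rpsa, the stalk proteins, the Diamond-Blackfan genes, the 3 highest and lowest members per comparison and the 5 highest and lowest core levels. Members named with copies, for their chromosome or for non-overlap were chosen after their values were seen. A few items that these rules name are not reported here. The members and lists were chosen with earlier results of these data known.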

Additional observations from a re-analysis of the deposited data

Results flagged for a closer look

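Rps27 moved in opposite directions with estradiol in the genotypes, lower at 24 h in wild type (228 to 82.1 FPKM) and higher in the knockout (18 to 80.3 FPKM), a difference of log2 ratios of 3.56. The difference was not tested, since there was 1 library per group. Summed with Rps27rt, whose coding sequence is identical, the difference was 0.08.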

How the results depend on the processing

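No paired analysis was possible because each group is 1 library with no replicate number, and for the same reason no replicate could be left out. Of the members' medians relative to all genes and their counts past 2-fold and past 0.32 (log2) from the all-gene median, 248 values under the 12 alternatives stayed close to those reported, 50 moved and 2 changed sign. The causes were not tested beyond what an alternative itself removes. Without a filter, which sets the all-gene medians to 0, the members' relative median was 0 in the wild-type response, -0.044 in the knockout response, where it changed sign, and -0.16 and -0.22 for knockout over wild type at 0 h and 24 h. The counts past 0.32 were then 2 above in the wild-type response, 4 below in the knockout response, 2 above and 2 below at 0 h, and 2 above and 7 below at 24 h. With a pseudocount of 5 FPKM the relative medians of the responses were 0.079 and 0.034, and 1 member was below at 24 h. Below in the knockout response there was 1 member with a pseudocount of 0.1 FPKM, with equal upper quartiles, with core members only and with TPM scaling. TPM scaling also gave relative medians of 0.21 in the knockout response, -0.19 at 0 h and 0.073 in the difference of responses, where it changed sign from -0.03. It placed 58 members at least 2-fold higher and 12 above in the knockout response, 25 at least 2-fold lower, 1 above and 3 below at 0 h, and 2 at least 2-fold higher in the difference. These values rest on the sum over all rows, which in the knockout at 0 h was mostly small RNA and predicted loci.

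Summing Rps27 with Rps27rt left 0 members 2-fold lower and 1 below in the wild-type response, 1 member 2-fold higher in the knockout response, 0 members 2-fold lower and 0 below at 0 h, and 0 members 2-fold higher and 1 above in the difference. Summing members with their copies, Rps27 among them, gave the same values of these counts except 0 below in the wild-type response and 0 above in the difference. It left 1 below in the knockout response. Without Rps27 and Rps16, 0 members were 2-fold higher or lower in any comparison, 1 was below in the wild-type response, 2 were above in the knockout response, 0 were below at 0 h and 1 was above in the difference. Without chromosome 5, 1 member was above at 0 h and 1 at 24 h. By counting error from converted fragments, depth limits Rps27 most, by 0.32 on each side of its knockout response, and Rps19bp1 next, by up to 0.24. This leaves out how fragments were divided between a member and its copies.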
